A study of Homo sapiens with 15 samples.

Results

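The comparison described here is the step in ascorbic acid (AA) from 10 to 50 µg/ml. It takes the 3 arrays of cells given 50 µg/ml (AA50, intermediate dose) against the 3 arrays of cells given 10 µg/ml (AA10, low dose), which are 6 of the 15 arrays of the series. All arrays hold RNA of MT-2, an established CD4+ T-cell line transformed by the human T-cell leukemia virus HTLV-1, after 48 hours of culture. The other arrays come from cells given 100 µg/ml AA (AA100), from cells given 1000 IU/ml IFN-α and from untreated cells, with 3 arrays each. A tag at the end of each title assigns 1 array of every condition to each of 3 experiments, and the AA50 and AA10 arrays were compared within these experiments. The tags of experiments 2 and 3 share a date, and whether these were separate cultures is not given in the sources used here. MT-2 is a single line, so the experiments are not separate donors. The p values and standard errors measure how far the difference between the doses varied from experiment to experiment. That variance was drawn towards a value common to all clusters, and it may in part be technical.

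AA, or vitamin C, is an antioxidant and a cofactor that keeps the iron of 2-oxoglutarate-dependent dioxygenases reduced. Among these enzymes are the prolyl hydroxylases that mark the hypoxia factor HIF-1α for degradation, the collagen hydroxylases, and histone and DNA demethylases. ATF4 is the transcription factor of the amino acid and endoplasmic reticulum (ER) stress response, and it is made when phosphorylation of eIF2α slows general translation. Its targets include amino acid transporters, enzymes of amino acid synthesis, and feedback regulators of stress. AA in culture medium can also be oxidized, which yields dehydroascorbate and hydrogen peroxide. The comparison between these doses asks which genes move between exposures that both contain AA, without resting on the untreated or AA100 arrays.

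Values are log2 intensities of transcript clusters, each a set of probes that together read one gene or transcript. The median of an array lay between 6.69 and 6.85 over the whole series. An array correlated with the other 14 at a mean r of 0.991 to 0.995, apart from replicate 3 of AA100 with 0.976. Of the 7 T-cell markers checked, CD4, CD2 and CD7 lay above the array median on all 6 arrays, whereas CD3D, CD3E, CD3G and CD5 did not. CD4 lay between 10.69 and 10.93, and CD3E between 5.08 and 5.62. All 7 markers of HTLV-1-transformed T cells were above the median, with the IL-2 receptor chain IL2RA between 13.20 and 13.28. Throughout, the 3 values of a dose are given in the order of experiments 1, 2 and 3, and a difference is AA50 minus AA10 on the log2 scale.

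The step from 10 to 50 µg/ml was small. Among 28926 clusters, 13 were called between AA50 and AA10 at an unadjusted p under 0.001 in limma with experiment as a block, which is 0.0449% of those tested, whereas 28.9 would be expected if nothing changed. Of these, 3 (0.0104%) were lower and 10 (0.0346%) were higher at AA50. No cluster passed a Benjamini-Hochberg adjusted p under 0.05, and 1519 (5.25%) had an unadjusted p under 0.05. No cluster differed by more than 1 on average, 38 differed by more than 0.5, and the median size of a difference was 0.05, against a median standard error of 0.06. Apart from the unnamed cluster described next, the adjusted p of every gene given below was 0.918 or higher in limma, and differences stand with their standard error (SE) from that fit.

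Of the 13 called clusters, 9 carried no gene symbol and 4 carried a single symbol. Their differences had sizes between 0.33 and 0.99, and the sign was the same in all 3 experiments for each of them, as a small p in a blocked fit requires. On 4 of them the value was below the lower quartile of every array. The untreated mean lay on the AA50 side of the AA10 mean for 10 of the 13, and the AA100 mean for 13. Both comparisons reuse the AA10 arrays on which the calls rest.

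The cluster with the smallest p carried no symbol (cluster 8142763). It read 4.56, 5.04 and 5.52 at AA50, against 3.62, 4.08 and 4.44 at AA10. The difference was 0.99 (SE 0.06, adjusted p = 0.0608 in limma), and the within-experiment differences ran from 0.95 to 1.07. The doses came close without overlapping, with 4.56 in experiment 1 at AA50 and 4.44 in experiment 3 at AA10. The untreated and AA100 means were 4.22 and 4.65, with 5.98 on replicate 3 of AA100. Replicates 1 and 2 of AA100 both read below the untreated mean. Within experiments, AA100 was above AA10 in experiments 1 and 3 and below it in experiment 2.

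SNORD116-24 fell. It is a C/D box small nucleolar RNA of the imprinted cluster that is lost in Prader-Willi syndrome. It read 8.61, 7.70 and 7.60 at AA50, against 8.97, 8.09 and 7.98 at AA10. Experiment 1 was high at both doses, so the doses overlapped, and the differences within experiments were -0.35, -0.39 and -0.38. The mean difference was -0.37 (SE 0.05). The untreated mean was 8.45 and the AA100 mean 7.35, with 6.23 on replicate 3 of AA100.

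ZFTRAF1 fell by one of its clusters, with 7.17, 7.34 and 7.07 at AA50 and 7.58, 7.70 and 7.43 at AA10. The difference was -0.38 (SE 0.05), and every AA50 value was below every AA10 value. In this cluster the untreated arrays read 7.06, 7.54 and 7.55, and the AA100 arrays 7.72, 7.32 and 6.36. The other and brighter cluster of ZFTRAF1 differed by -0.08 (SE 0.07), so the probes of this gene disagreed.

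ZNF667-AS1, a long non-coding RNA antisense to a zinc-finger gene, rose by 0.36 (SE 0.05). It read 4.32, 4.43 and 4.62 at AA50, against 3.97, 4.07 and 4.25 at AA10, all below the lower quartile of their array. The olfactory receptor pseudogene OR1F2P rose by 0.40 (SE 0.06), with 5.82, 5.66 and 5.47 at AA50 and 5.33, 5.25 and 5.17 at AA10. AA50 and AA10 did not overlap for either gene. The untreated and AA100 means were 3.89 and 4.50 for ZNF667-AS1 and 5.38 and 5.73 for OR1F2P. For OR1F2P, replicate 2 of the untreated cells read 5.61, within the AA50 range. None of the 4 calls with a symbol held when any 1 of the 3 experiments was left out, and SNORD116-24, ZFTRAF1, ZNF667-AS1 and OR1F2P stayed called in 4 of 18, 5 of 18, 3 of 17 and 7 of 18 alternatives.

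**Figure D1:**
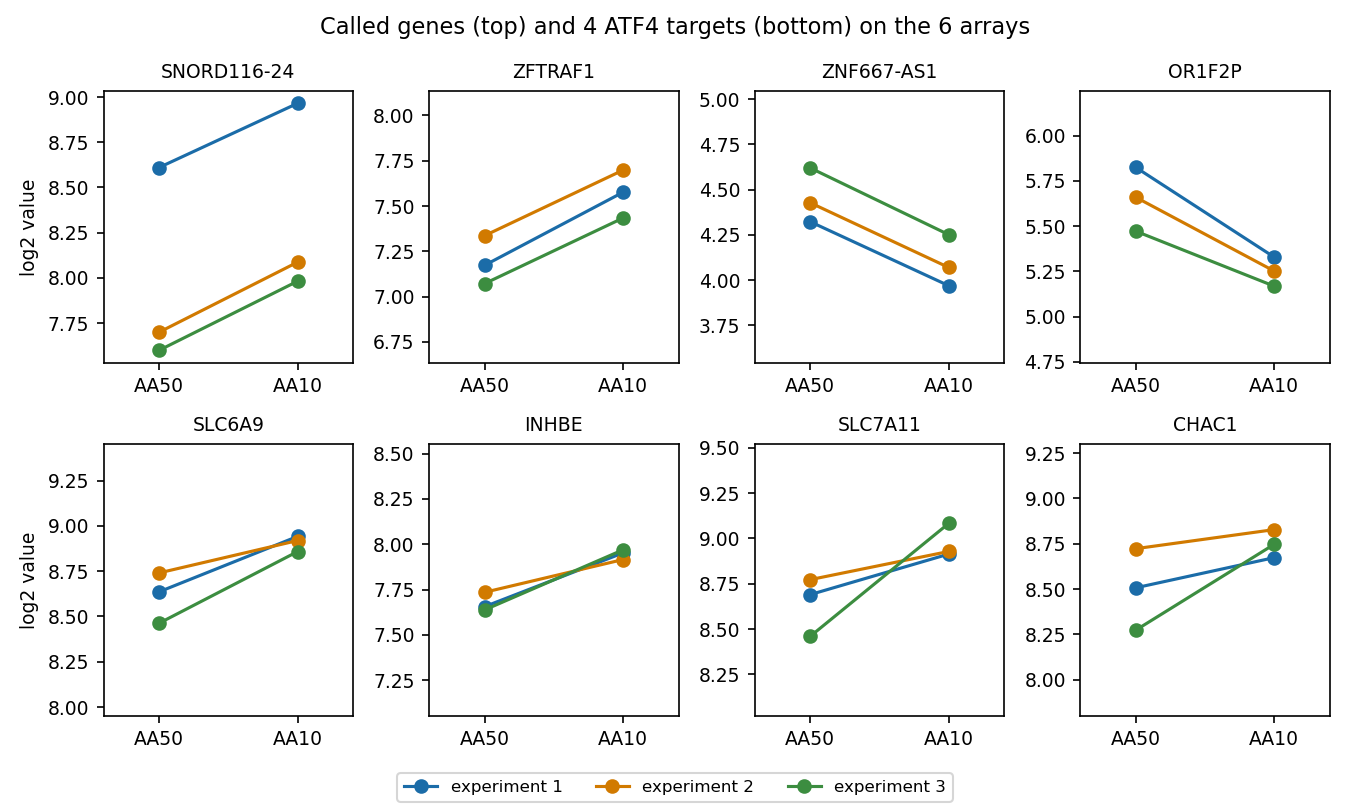
Log2 value of 8 genes on the 6 arrays, AA50 at the left and AA10 at the right of each panel, with a line joining the arrays of an experiment. All 3 lines of a panel run the same way in each of the 8 panels. The steps ran from -0.35 to -0.39 for SNORD116-24, from 0.50 to 0.30 for OR1F2P and from -0.16 to -0.62 for SLC7A11, an ATF4 target that was not called.

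The genes next in order of p had the same sign in all 3 experiments but were not called. Lower values at AA50 were read for PTGS2, which encodes the prostaglandin synthase COX-2 (-0.29), for the U5 small nuclear RNA gene RNU5E-1 (-0.31), for GJB5, a connexin (-0.30), and for COL11A2, a collagen chain (-0.28). PTGS2 read 6.25, 5.74 and 5.39 at AA50, against 6.57, 5.96 and 5.72 at AA10, with experiment 1 highest at both doses. The brightest of the 3 COL11A2 clusters differed by -0.07. LINC02693 (-0.34), SCP2D1-AS1 (-0.29) and SPMIP11 (-0.27) complete the lower side, and SCP2D1-AS1 and SPMIP11 were under the lower quartile on all 6 arrays. Higher values were read for ZNF350, a zinc-finger repressor (0.35), for the H/ACA small nucleolar RNA SNORA41 (0.33), for CTDP1-DT (0.29), and for TAS2R16, IGF2BP2-AS1 and PXT1 (0.29, 0.29 and 0.34), of which the last 3 were under the lower quartile on all 6 arrays.

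MicroRNA genes were among these genes, and their mature sequences are shown because a microRNA acts through its seed, bases 2 to 8, given here in capitals. The array cluster reads the precursor locus and not the mature RNA. Sequences are from RefSeq on GRCh38.p14, written 5′ to 3′, and no seed is shared between the 4 printed.
hsa-miR-27a-3p (chr19:13836447-13836467, minus strand): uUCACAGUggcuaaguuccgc
hsa-miR-27a-5p (chr19:13836487-13836508, minus strand): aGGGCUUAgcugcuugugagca
hsa-miR-15a-5p (chr13:50049167-50049188, minus strand): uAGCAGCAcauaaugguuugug
hsa-miR-147a (chr9:120244985-120245004, minus strand): gUGUGUGGaaaugcuucugc

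MIR27A read 6.21, 6.25 and 6.28 at AA50, against 6.48, 6.59 and 6.55 at AA10, a difference of -0.29 (SE 0.05, not called). Every AA50 value was below every AA10 value. The untreated mean of 6.24 was at the AA50 level, whereas the AA100 mean of 6.48 was closer to the AA10 mean of 6.54. MIR15A, of a pair of microRNAs known to target BCL2, read 6.36, 6.02 and 6.33 at AA50 and 6.03, 5.79 and 5.71 at AA10. Its difference was 0.39 (SE 0.09), and the lowest AA50 value lay just under the highest AA10 value. MIR147A read 6.54, 6.38 and 7.12 at AA50 and 6.27, 6.17 and 6.65 at AA10, a difference of 0.32 (SE 0.07), with experiment 3 high at both doses.

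The ATF4 targets were lower at AA50 as a group, although no member was called. Of 42 genes on the list, 40 were measured, and the 18377 genes measured by a cluster of their own serve as background. The median difference of the 40 was -0.07, and the medians within experiments were -0.14, -0.02 and -0.10, against -0.01 over all genes (0.00, 0.00 and -0.02 within experiments). Without the block, the median of the 40 was -0.13 with replicate 3 of AA10 left out and -0.04 with replicate 3 of AA50 left out. By the mean difference, 31 of 40 were lower, against 54% of all genes. Of the 40, 18 (45%) were lower in all 3 experiments and 0 were higher in all 3, against 14.5% and 11% of all genes. An unadjusted p under 0.05 with a lower value was met by 10 of 40, against 2.07% of all genes, and 7 of 40 had every AA50 value below every AA10 value, against 3.74%. At the called threshold the count was 0 of 40, where 0.00544% of all genes were called lower. This list, like the others below, was chosen with earlier results of these data known. Its shares are therefore a description and not a test.

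Among the transporters, SLC6A9, which carries glycine, read 8.64, 8.74 and 8.46 at AA50, against 8.94, 8.92 and 8.86 at AA10. Every AA50 value was below every AA10 value. The difference was -0.29 (SE 0.06), and the AA100 and untreated means were 8.49 and 8.94. SLC7A11, the cystine importer of system xc-, which feeds glutathione synthesis, differed by -0.33 (SE 0.10), with -0.22, -0.16 and -0.62 in the 3 experiments. SLC1A5, a glutamine carrier, differed by -0.18 (SE 0.06) in its brighter cluster and by -0.04 in its other cluster. SLC7A5, the large neutral amino acid carrier, differed by -0.14 (SE 0.06), and its partner chain SLC3A2 by -0.15 (SE 0.06). SLC7A1, a cationic amino acid carrier, differed by -0.12 (SE 0.06). Over the whole list of 14 amino acid transporters, 12 were lower by the mean difference and 7 (50%) in all 3 experiments, with medians of -0.11, -0.07 and -0.09, and 0 were called. This list shares members with the ATF4 list.

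Among secreted factors and regulators, INHBE, an inhibin chain, read 7.66, 7.73 and 7.64 at AA50, against 7.95, 7.92 and 7.97 at AA10. The doses did not overlap, and the difference was -0.27 (SE 0.06). The untreated mean was 8.15 and the AA100 mean 7.43, so the AA10 and AA50 means lay in order between them. CHAC1, which degrades glutathione, read 8.51, 8.72 and 8.27 at AA50 and 8.67, 8.83 and 8.75 at AA10, a difference of -0.25 (SE 0.08). SESN2, a sestrin that restrains mTORC1, differed by -0.24 and the pseudokinase TRIB3, a feedback inhibitor of ATF4, by -0.23 (SE 0.08 for both), and both were furthest below AA10 in experiment 3 (-0.47 and -0.42). DDIT3, the death-associated factor CHOP, differed by -0.10 (SE 0.06), and CEBPG, a partner of ATF4, by -0.09 (SE 0.05).

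Among enzymes, PSAT1 of serine synthesis read 9.66, 9.83 and 9.82 at AA50, against 10.03, 10.08 and 9.90 at AA10. The doses did not overlap. The difference was -0.23 (SE 0.07). PCK2, the mitochondrial form of phosphoenolpyruvate carboxykinase, differed by -0.18 (SE 0.05) with nearly the same size in each experiment (-0.17, -0.17 and -0.18), and PYCR1 of proline synthesis by -0.14 (SE 0.06). Over the whole list of 14 amino acid synthesis genes, which shares members with the ATF4 list, 12 were lower by the mean difference but only 3 (21.4%) in all 3 experiments, 0 were called, and the medians were -0.11, 0.03 and -0.03. PHGDH, which opens serine synthesis, and the glycine enzyme SHMT2 differed by -0.02 and -0.04 (SE 0.06 for both), and the glutamine synthetase GLUL by 0.15 (SE 0.09). CTH, of cysteine synthesis, differed by -0.46, 0.04 and -0.26 in the 3 experiments, and the asparagine synthetase ASNS, a widely used ATF4 reporter gene, by only -0.04 (SE 0.07).

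ATF4 mRNA itself read 10.12, 10.59 and 10.16 at AA50, against 10.37, 10.45 and 10.03 at AA10, with differences of -0.24, 0.13 and 0.13 and a mean of 0.01 (SE 0.09). DDIT4, an inhibitor of mTORC1 that hypoxia also induces, stood at the other end of the list with a difference of 0.18 (SE 0.12) and with -0.18, 0.33 and 0.39 in the 3 experiments.

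**Figure D2:**
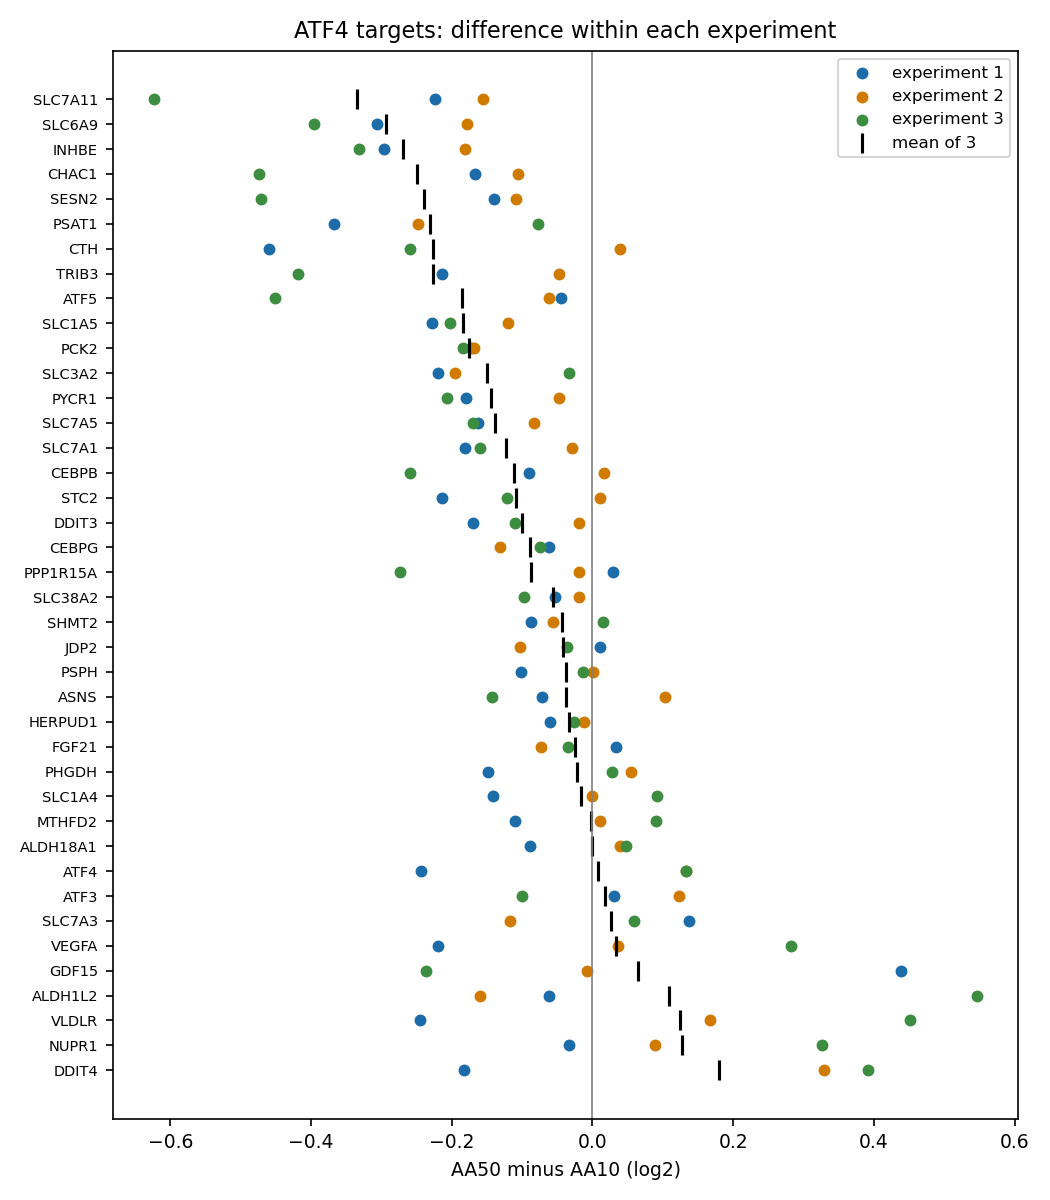
Difference AA50 minus AA10 (log2, horizontal) of each of the 40 measured ATF4 targets, with 1 coloured point per experiment and a black tick at the mean. Of the 40 genes, 18 have all 3 points left of 0 and none has all 3 points right of it, and experiment 2 (median -0.02) lies closest to 0.

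The genes SLC7A11, INHBE, CHAC1 and SLC6A9 are also on the study's own list of genes for high-dose AA, which was chosen on arrays of the same experiments. Without them, the remaining 36 had a median of -0.04 (-0.12, -0.02 and -0.08 within experiments), with 27 lower by the mean difference and 14 (38.9%) lower in all 3 experiments.

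Promoters of the list were read for TGATGNAA, the core letters of the C/EBP-ATF response element, on both strands (TTNCATCA on the other) in a window from 250 bases before to 50 after a gene's start. In RefSeq on GRCh38.p14, 31 of the 40 measured genes had such a window. Of the 31, 11 (35.5%) held the letters, against 3.62% of all 35116 windows and 4.46% of the 27305 genes. This contrast reflects how the list was chosen, as ATF4 targets, and says nothing about the step between the doses. The share was 6 of 15 (40%) for members lower in all 3 experiments and 5 of 16 (31.2%) for the other members. The other members include genes that were lower by the mean difference, and the counts are small. The comparison therefore cannot tell whether the letters separate members that were lower from those that were not. A match is a description of the letters and not a measured binding site. The windows of CHAC1, SLC1A5, CEBPG and HERPUD1, an ER stress gene, are shown because each is lower in all 3 experiments and carries the full TGATGCAA or its reverse complement, with the match in capitals, 5′ to 3′ on the gene's strand.
CHAC1 (chr15:40953221-40953520, plus strand): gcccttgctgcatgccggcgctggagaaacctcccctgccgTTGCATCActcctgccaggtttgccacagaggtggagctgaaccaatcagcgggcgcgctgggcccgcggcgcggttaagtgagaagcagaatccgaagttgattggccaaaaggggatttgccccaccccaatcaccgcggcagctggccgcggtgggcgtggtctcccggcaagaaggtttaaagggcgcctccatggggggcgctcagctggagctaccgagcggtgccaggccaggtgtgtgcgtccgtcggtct
SLC1A5 (chr19:46784765-46785064, minus strand): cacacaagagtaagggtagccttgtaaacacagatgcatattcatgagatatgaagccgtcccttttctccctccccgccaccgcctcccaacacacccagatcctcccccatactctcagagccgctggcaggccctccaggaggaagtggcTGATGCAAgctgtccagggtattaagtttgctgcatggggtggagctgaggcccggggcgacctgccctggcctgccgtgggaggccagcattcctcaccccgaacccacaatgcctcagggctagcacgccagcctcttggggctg
CEBPG (chr19:33373863-33374162, plus strand): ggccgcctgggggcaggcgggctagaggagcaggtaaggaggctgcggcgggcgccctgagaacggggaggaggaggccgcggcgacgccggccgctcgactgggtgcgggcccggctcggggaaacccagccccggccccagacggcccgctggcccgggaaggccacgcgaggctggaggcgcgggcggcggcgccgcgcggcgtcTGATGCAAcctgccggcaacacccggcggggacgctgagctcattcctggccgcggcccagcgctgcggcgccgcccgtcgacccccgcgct
HERPUD1 (chr16:56931892-56932191, plus strand): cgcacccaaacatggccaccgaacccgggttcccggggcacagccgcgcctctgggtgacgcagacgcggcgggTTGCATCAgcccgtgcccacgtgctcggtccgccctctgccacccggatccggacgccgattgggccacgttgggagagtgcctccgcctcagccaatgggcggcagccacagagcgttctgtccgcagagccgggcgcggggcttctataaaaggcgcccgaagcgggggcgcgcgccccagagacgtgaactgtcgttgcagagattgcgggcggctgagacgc

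In these windows the match began at position 42 in CHAC1 and at position 75 in HERPUD1, where it stands as the reverse complement, at position 154 in SLC1A5 and at position 209 in CEBPG. The differences were -0.25 for CHAC1, -0.18 for SLC1A5 and -0.09 for CEBPG, but only -0.03 (SE 0.05) for HERPUD1.

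Neighbouring stress lists also lay below 0, with no member called. ER chaperones and genes of the unfolded protein response, which restore protein folding, were lower by the mean difference for 17 of 19 and lower in all 3 experiments for 8 (42.1%), with medians of -0.01, -0.07 and -0.10. Their smallest p values belonged to the co-chaperones DNAJC3 (-0.19, SE 0.06) and SDF2L1 (-0.15, SE 0.05), to the transcription factor XBP1 (-0.19, SE 0.06) and to DNAJB9 (-0.17, SE 0.06). With an array left out and no block, the median of this ER list ran from -0.12 to 0.0065, so it did not stay below 0. With an experiment left out and the block kept, it ran from -0.09 to -0.03. XBP1 read 10.12, 9.92 and 10.09 at AA50, against 10.38, 10.11 and 10.20 at AA10, and the doses overlapped by a narrow margin between experiments 1 and 2. The chaperone HSPA5 (BiP) differed by -0.07 (SE 0.06). Of 19 cytosolic tRNA synthetases, which ATF4 also controls in part, 6 (31.6%) were lower in all 3 experiments, 0 were called and none had an unadjusted p under 0.05. The glycine and asparagine enzymes GARS1 (-0.11) and NARS1 (-0.12) had the smallest p of these (SE 0.05 and 0.06).

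Of 24 AP-1 and early response genes, which answer growth and stress signals and which the HTLV-1 Tax protein can activate, 20 were lower by the mean difference and 10 (41.7%) in all 3 experiments, with medians of -0.07, -0.01 and -0.11. FOS read 7.76, 8.21 and 7.91 at AA50, against 7.89, 8.32 and 8.24 at AA10. The difference was -0.19 (SE 0.07), and the doses overlapped although each experiment was lower at AA50. The phosphatase DUSP2 differed by -0.14 (SE 0.07).

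The SNORD116 RNAs did not move as a block. Of 30 on the list, 20 were measured, with 13 lower by the mean difference. In all 3 experiments 5 (25%) were lower and 0 higher, against 14.5% and 11% of all genes. The 1 called member, SNORD116-24, is the call described above. Of all 18377 genes, each by its brightest cluster, 1 (0.00544%) was called lower, and it is this gene. The median of the 20 was -0.06, and the medians within experiments were -0.07, -0.14 and 0.01. SNORD116-29 differed by -0.20 (SE 0.06) and SNORD116-12 by -0.15 (SE 0.07), both below the lower quartile of every array, whereas the bright SNORD116-15 differed by -0.10 (SE 0.06) from an AA10 mean of 11.55. Members of this family are near copies of each other, and how far their probes share targets was not tested. Of the neighbouring SNORD115 RNAs, all 20 measured were below the lower quartile, with a median of 0.03.

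**Figure D3:**
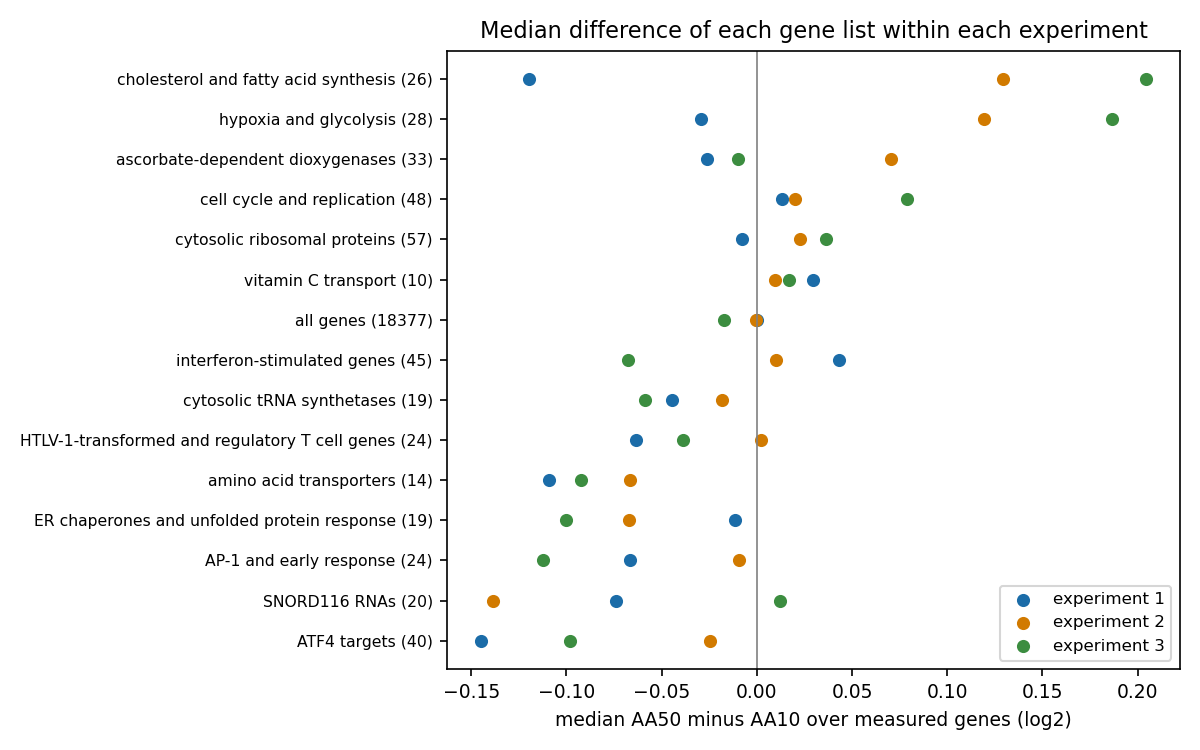
Median difference AA50 minus AA10 (log2, horizontal) over the measured genes of 14 lists and of all genes, with 1 point per experiment and the number of genes in brackets. The ATF4 targets (-0.14, -0.02 and -0.10) and amino acid transporters lie left of 0 in all experiments, whereas cholesterol synthesis (-0.12, 0.13 and 0.20) and hypoxia change sign between them.

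Hypoxia and glycolysis genes were mostly higher at AA50, but by sizes that differed between experiments. Of 28 measured, 26 were higher by the mean difference, 0 were called, and 6 (21.4%) were higher in all 3 experiments, against 11% of all genes. An unadjusted p under 0.05 with a higher value was met by 4 of 28, against 1.77% of all genes, and in 0 of 28 was every AA50 value above every AA10 value, against 2.39%. Calls in this direction make up 0.0109% of all genes. The medians within experiments were -0.03, 0.12 and 0.19. BNIP3, a mitophagy receptor induced by HIF-1, read 11.44, 11.29 and 10.77 at AA50, against 11.39, 10.87 and 9.57 at AA10. The within-experiment differences were 0.04, 0.41 and 1.20, and replicate 3 of AA10 was the lowest of the 6 arrays. The mean difference was 0.55 (SE 0.20). With that array left out and no block, the median of the list was -0.03, against 0.09 with all 6 arrays.

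The same array was lowest for other genes of this kind. ALDOC, an aldolase of glycolysis, read 10.89, 10.32 and 9.67 at AA50, against 11.13, 9.81 and 8.31 at AA10, and differed by 0.54 (SE 0.27). PFKFB4, which sets the level of a glycolytic activator, differed by -0.07, 0.43 and 1.05 in the 3 experiments, with a mean of 0.47 (SE 0.19). Its relative PFKFB3 differed by 0.28 (SE 0.11) and the hexokinase HK2 by 0.23 (SE 0.09). In each of these 4 the sign in experiment 1 was the opposite of that in the other experiments.

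Dioxygenases that use AA were described as a list of their own. Of 33 measured, 20 were higher by the mean difference, 5 (15.2%) were higher and 4 (12.1%) lower in all 3 experiments, and 0 were called. The HIF prolyl hydroxylase EGLN1 read 9.80, 9.49 and 9.26 at AA50, against 9.74, 9.17 and 8.75 at AA10, a difference of 0.30 (SE 0.09). The lysyl hydroxylase PLOD2 (0.37), the histone demethylase KDM3A (0.46) and the collagen prolyl hydroxylase subunit P4HA1 (0.32) showed -0.09, -0.09 and -0.04 in experiment 1 and 0.72, 1.03 and 0.75 in experiment 3. All 4 are themselves known HIF-1 targets. Genes that carry AA or recycle its oxidized form (10 measured) had a median of 0.01, and 0 were lower or higher in all 3 experiments. The sodium-coupled AA transporter SLC23A2 read 8.72, 8.67 and 8.51 at AA50, against 8.76, 8.53 and 8.70 at AA10 (difference -0.03, SE 0.08), and GSTO1, a dehydroascorbate reductase, differed by 0.14 (SE 0.08).

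Cholesterol and fatty acid synthesis genes, the targets of the SREBP factors, also differed between experiments. Of 26 measured, 24 were higher by the mean difference, 4 (15.4%) in all 3 experiments, and 0 were called, with medians of -0.12, 0.13 and 0.20. SCD, a fatty acid desaturase, differed by -0.16, 0.25 and 0.68, and HMGCS1, of sterol synthesis, by 0.03, 0.14 and 0.41 (SE of the mean difference 0.15 and 0.08). The median of the list was 0.08 with all 6 arrays and -0.10 with replicate 3 of AA10 left out and no block.

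Set beside the other AA doses, these lists and the ATF4 list were ordered differently. Each gene was taken relative to its mean over the 12 arrays without IFN-α, and the median of the list was read per array. In experiment 3 the hypoxia list stood at 0.14, -0.26, -0.10 and -0.69 at 0, 10, 50 and 100 µg/ml, so that AA50 was higher than AA10 but lower than untreated. In experiment 2 it stood at 0.09, -0.02, 0.10 and -0.02 over the same doses, with AA50 close to untreated, and in experiment 1 at 0.12, 0.17, 0.19 and 0.16. The ATF4 list stood at 0.16, 0.02, -0.10 and -0.48 in experiment 3, at 0.14, 0.07, 0.03 and -0.04 in experiment 2, and at 0.07, 0.13, 0.01 and -0.04 in experiment 1. The ATF4 list was lower at AA50 than at AA10 and lower again at AA100 in each experiment. In experiment 3 the AA100 value comes from replicate 3 of AA100, the array with a mean r of 0.976. Other lists, though not all, also stood low on that array, so its further fall is not particular to the ATF4 list. These levels are a description, since neighbouring steps share arrays.

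**Figure D4:**
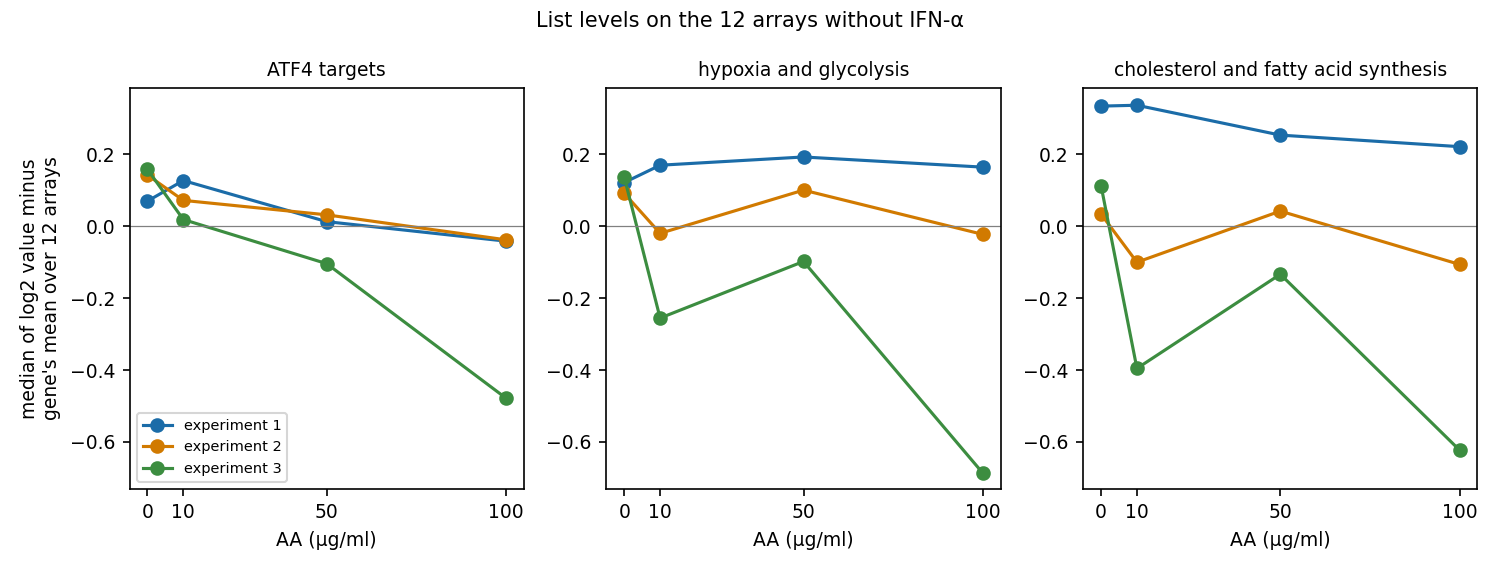
Level of 3 gene lists on the 12 arrays against AA dose (µg/ml, horizontal), as the median over genes of the log2 value minus the gene's mean over these arrays, with 1 line per experiment. ATF4 targets lie lower at 50 than at 10 µg/ml and lower again at 100 µg/ml in every experiment. The point of experiment 3 at 100 µg/ml is the array with the lowest mean correlation with the others (0.976). Hypoxia and cholesterol genes spread by experiment and dip at AA10 in experiment 3 (-0.26 and -0.40) and by less in experiment 2 (-0.02 and -0.10).

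Cell cycle and replication genes were slightly higher at AA50. Of 48 measured, 41 were higher by the mean difference, against 46% of all genes, and 11 (22.9%) in all 3 experiments, with medians of 0.01, 0.02 and 0.08 and 0 called. Thymidine kinase TK1 read 10.42, 10.32 and 10.16 at AA50, against 10.30, 10.20 and 10.01 at AA10, a difference of 0.13 (SE 0.05). The mitotic cyclin CCNB1 differed by 0.17 (SE 0.07) and the spindle checkpoint kinase BUB1B by 0.14 (SE 0.07).

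Genes of the transformed T-cell state differed little. Of 24 measured, 16 were lower and 8 higher by the mean difference, and 0 were called. In all 3 experiments 7 (29.2%) were lower and 0 higher, against 14.5% and 11% of all genes. FOXP3, the regulatory T-cell factor, read 7.81, 7.21 and 7.26 at AA50, against 8.01, 7.44 and 7.32 at AA10, a difference of -0.16 (SE 0.06) with experiment 1 high at both doses. IL2RA and the chemokine receptor CCR4 differed by -0.05 and -0.04 (SE 0.05 and 0.06). In the other direction, CTLA4 differed by 0.22 (SE 0.10), with -0.06 in experiment 1 and 0.38 in experiment 3. ICOS, below the lower quartile on all 6 arrays, differed by 0.18 (SE 0.09). Among 23 cytokines 0 were called. TNF differed by -0.20 (SE 0.08, with the same values on each of its 3 clusters). IL1B and IL21, both below the lower quartile on all 6 arrays, differed by -0.12 and 0.18 (SE 0.05 and 0.07). IL6 differed by 0.09, -0.41 and -0.71 in the 3 experiments, with a mean of -0.34 (SE 0.14).

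Interferon-stimulated genes held both directions. Of 45 measured, 29 were lower by the mean difference, against 54% of all genes, and 0 were called. In all 3 experiments 7 (15.6%) were lower and 4 (8.89%) higher, close to the 14.5% and 11% of all genes. EPSTI1 read 8.17, 8.04 and 7.97 at AA50, against 7.96, 7.70 and 7.74 at AA10, a difference of 0.26 (SE 0.06). SAMD9 differed by 0.37 (SE 0.11), with 0.07, 0.42 and 0.63 in the 3 experiments. Replicate 3 of AA10 was its lowest array, with 9.15. IFI35 and IFI27 differed by -0.22 and -0.14 (SE 0.07 and 0.05). Cell death lists held no called member either. Lower in all 3 experiments were 3 of 20 BCL2 family genes (15%), 3 of 17 death receptor and necroptosis genes (17.6%) and 2 of 15 caspases and IAPs (13.3%). These shares are close to the 14.5% of all genes. Higher in all 3 were 10%, 11.8% and 6.67%, against 11% of all genes, and the highest difference on the BCL2 family list was 0.55. The initiator caspase CASP9 differed by -0.16 (SE 0.06) and the death receptor TNFRSF10B by -0.13 (SE 0.06).

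The study lists genes for high-dose AA against untreated cells, arrays that the present step does not use. Of those listed as lower, 16 were measured here by a cluster of their own, and 13 were lower at AA50 than at AA10, 7 of them in all 3 experiments (43.8%), with a median of -0.12. Of those listed as higher, 16 were measured, and 9 were higher at AA50, 6 in all 3 experiments (37.5%), while 5 (31.2%) were lower in all 3. None was called. On the higher list 9 of the 16 were below the lower quartile on all 6 arrays, among them PCDHB3, MGP, OPRPN and KYNU. The protocadherin PCDHB3 differed by 0.29 (SE 0.09) and the matrix protein MGP by 0.20 (SE 0.06). By contrast, TLL1 and OPRPN differed by -0.17 and -0.18 (SE 0.06 and 0.07), and KYNU, of tryptophan breakdown, by 0.03. On the lower list the sulfatase SULF1 differed by -0.15 (SE 0.07) and the chloride channel BEST1 by -0.12 (SE 0.05).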

How the data were processed

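RNA was hybridised to Affymetrix Human Gene 1.0 ST arrays. The authors deposited log2 values made by RMA with xps 1.8.0 (background correction, quantile normalization, summarization per transcript cluster), and no further normalization was applied. Quantile normalization sets the value distributions of all arrays equal before summarization, so a shift common to most genes would not be seen. Raw intensities were not analysed here. Of 28926 clusters, 19310 carried 1 symbol, 1752 several and 7864 none. No gene is named from a cluster with several symbols, and a gene with several clusters is given by the brightest one unless stated. The clusters with 1 symbol name 18377 genes.

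The 3 AA50 and 3 AA10 arrays were fitted with limma 3.58.1 in R 4.3.3 with experiment as a fixed block (2 residual and 4.12 prior degrees of freedom), two-sided. Calls were made at an unadjusted p under 0.001, which the study's methods also use, and the block was chosen here. Same-numbered arrays deviated together from their group means (r of 0.501, 0.285 and 0.477 for experiments 1, 2 and 3, against -0.427 to -0.004 for arrays of different experiments). Deviations from a mean of 3 arrays sum to 0, so the negative values follow in part from the positive ones. The pairing comes from the tag in the titles. The function was tested on simulated data. Gene lists are described by counts and medians, with no test. Members, lists and tests were chosen with earlier results of these data known. Genes named are up to 10 per direction with the smallest p and the same sign in all experiments, up to 4 list members by p, genes the study lists for high-dose AA, and a few list members added for their role after their values were seen. The alternatives were no or a random experiment block, models of 15 or 12 arrays, filters on dim or unnamed clusters, a trended and robust variance, cyclic loess, means over a gene's clusters, and leaving out arrays or experiments. A number of 3 arrays per dose limits the precision. Sequences are from RefSeq tables on GRCh38.p14, and the annotation of the array names no build, so gene positions are not given. Figures were drawn with matplotlib in Python.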

Additional observations from a re-analysis of the deposited data

How the results depend on the processing

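The number of calls depended on the model, and none of the alternatives gave a cluster with an adjusted p under 0.05. Without the replicate block there were 2 calls (0 lower, 2 higher), with a random block 21 (10 lower, 11 higher), with all 15 arrays and the block 2 (1 lower, 1 higher), with all 15 arrays and no block 1 (1 lower, 0 higher), and with 12 arrays 9 (0 lower, 9 higher). Without the dimmest 25% of clusters 8 were called (3 lower, 5 higher), with only clusters of 1 symbol 10 (7 lower, 3 higher), with a trended and robust variance 22 (6 lower, 16 higher) and with cyclic loess 13 (4 lower, 9 higher). Leaving out an experiment or an array gave 0 to 48 calls (0 to 11 lower, 0 to 37 higher). Leaving out experiment 1 gave 14 and experiment 3 gave 24. The 48 came without experiment 2, and 4 of them were among the 13. The cause was not tested.

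The ATF4 median was -0.13 to -0.04 with an experiment or array left out and -0.09 to -0.04 under the other alternatives. That of the SNORD116 RNAs was -0.12 to -0.0047 with an experiment or array left out. Among the fits with an experiment or an array left out, of 110 differences of genes and clusters, 17 turned sign, and none of these was called. With the block, leaving out replicates gave ATF4 -0.0557 to 0.13 (-0.0557 without replicate 2 and -0.0552 without replicate 3), ASNS -0.11 to 0.0160, SLC23A2 -0.11 to 0.0567 (ASNS and SLC23A2 highest without replicate 3) and PHGDH -0.0602 to 0.0413 (highest without replicate 1). Without the block and without replicate 1 of AA10, DDIT3 read 0.0017, ASNS 0.0134, FOXP3 0.0480, SLC23A2 0.0214 and PHGDH 0.0475. Without replicate 2 of AA10, HERPUD1 read 0.0288. Without replicate 3 of AA10, DDIT4 read -0.134, ATF4 -0.120, PFKFB3 -0.0098, HK2 -0.0075, PFKFB4 -0.0514, ALDOC -0.178, PLOD2 -0.0042, KDM3A -0.0432, P4HA1 -0.0296, HMGCS1 -0.0383 and SCD -0.116. Without replicate 1 of AA50, DDIT4 read -0.0134 and HERPUD1 0.0510, without replicate 2 of AA50, ATF4 read -0.141, and without replicate 3 of AA50, SLC23A2 read 0.0374 and PHGDH 0.0394. Without replicate 3 of AA10 and without a block, the median of the hypoxia list was -0.03 and that of the cholesterol list -0.10. The dimmest genes, such as the SNORD115 RNAs, were below the filter on dim clusters and gave no value there.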

Other observations

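Lists not described above held no called member. Replication-dependent histones were lower in all 3 experiments for 11 of 39 (28.2%), with H1-3 differing by -0.20 (SE 0.06) and H4C8 by -0.21 (SE 0.07), against a list median of -0.03. Cytosolic ribosomal protein genes were higher in all 3 experiments for 12 of 57 (21.1%), with a median of 0.02, and RPLP2 differed by 0.16 (SE 0.05). Of 68 nuclear-encoded respiratory chain genes, 12 (17.6%) were lower and 13 (19.1%) higher in all 3 experiments, against 14.5% and 11% of all genes. The subunits COX5B and COX7A2 differed by -0.16 and 0.22 (SE 0.05 and 0.07).

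Antioxidant and NRF2 genes (28 measured) had medians of 0.06, -0.03 and -0.09 in experiments 1, 2 and 3, and OSGIN1, an oxidative stress response gene, differed by -0.15 (SE 0.06). Of 12 iron handling genes, 3 (25%) were higher in all 3 experiments, against 11% of all genes, among them the dim iron exporter SLC40A1 (0.13, SE 0.05). MT2A, the brightest metallothionein cluster, read 13.73 ± 0.02 at AA50 and 13.75 ± 0.03 at AA10 (SD, n = 3 each), a difference of -0.03. The heat shock gene HSPA1L differed by 0.17 (SE 0.07). Among the NF-kB pathway genes 8 of 25 (32%) were lower in all 3 experiments, with medians of -0.06, 0.00 and -0.04.

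Marker lists of B cells, monocytes and macrophages, NK and cytotoxic cells, and epithelial cells and fibroblasts had medians between -0.03 and -0.01, and the 4 measured erythroid markers had a median of -0.05. None of their members was called.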
